A study of Mus musculus with 3 samples.

Results

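The genes described here carry a cell through mitosis, the division of the duplicated chromosomes between daughter cells. The list held 45 genes of mitotic entry, the spindle checkpoint, anaphase, the kinetochore, the spindle, cytokinesis and chromosome structure. A gene was taken where a probe set of the array named it alone, and was represented by its brightest probe set, that with the highest mean signal over the 3 arrays. This gave 44 of the 45 genes, out of 18193 genes named on the array; Ccnb1 was not analysed here. The arrays measured RNA of endosteal cells, which lie along the marrow side of bone, of C57BL/6 mice; the labels state neither the age nor the number of mice. Femur and tibia fragments were digested with collagenase, and cells carrying CD45, CD31 or Ter119, the surface markers of blood cells, vessel lining and maturing red cells, were left out. The rest was sorted on the adhesion molecule ALCAM and the stem and progenitor marker Sca-1 into ALCAM+ Sca-1- cells (ALCAM+ below), ALCAM- Sca-1+ cells (Sca-1+) and ALCAM- Sca-1- cells (marker-negative). A single array was run per population, so no difference has a replicate check, no test between populations was possible, and higher and lower refer to the size of a difference alone.

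As background, cyclin A and cyclin B proteins bind the kinase Cdk1 and drive a cell into mitosis, the spindle checkpoint then holds the anaphase-promoting complex in check until every chromosome is attached, and that complex, with its activator Cdc20, triggers separation by destroying securin and cyclin B. Transcripts of most of these genes are made late in the cell cycle and are scarce in resting cells. The DREAM complex keeps many of them silent in resting cells by binding a promoter element called the cell cycle genes homology region, or CHR, and the factor NF-Y binds the CCAAT box that often lies near it. Mature osteoblasts and osteocytes are largely resting cells, whereas blood cell precursors of the marrow divide often.

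Values are MAS5 signals, in arbitrary units on a linear scale. Signals at or below a floor of 75.4, the median over all non-control probe sets of the 3 arrays, were set to the floor before log2 differences were taken, and a fold against such a signal is given as at least that size. A gene was counted as apart where it differed at least 4-fold, which is 2 on the log2 scale. Of the array's probe sets 48.9% to 51.4% lay above the floor. The sort could be followed in Alcam, which gave 36.3 in marker-negative, 267.7 in ALCAM+ and 41.1 in Sca-1+ cells. Ptprc, which encodes CD45, gave 159.4, 11.6 and 163.2 in the same order, so it was above the floor in marker-negative and Sca-1+ cells, and Pecam1, the gene of CD31, did not exceed the floor on any array. The ratio of 3' to 5' control signals was 2.55 to 2.77 for Actb and 3.75 to 3.96 for Gapdh, with no population set apart. The poly-A controls, spike-in RNAs, differed more, with geometric means of 271.9 in marker-negative, 420.1 in ALCAM+ and 227.6 in Sca-1+ cells.

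The mitosis genes were bright in marker-negative cells and dim in both other populations. All 44 were above the floor in marker-negative cells, with signals from 123 to 6858 and a median of 1017. In ALCAM+ cells 28 were above it and the median was 95.2, and in Sca-1+ cells 18 were above it and the median was 63.6, which is below the floor. The marker-negative array gave the highest of the 3 signals for 42 genes, as it did for 33.2% of the 12643 measured genes, those with a signal over the floor on any array. The exceptions were Pttg1 and Cdc25b, both highest in Sca-1+ cells, as were 38.7% of measured genes, and 0 of the 44 were highest in ALCAM+ cells, as were 28.1%. Because 15 of the 44 genes were above the floor in marker-negative cells alone, many of the folds below are lower bounds. In sorted populations measured in bulk, fewer dividing cells and less of these transcripts per cell cannot be told apart.

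**Figure D1:**
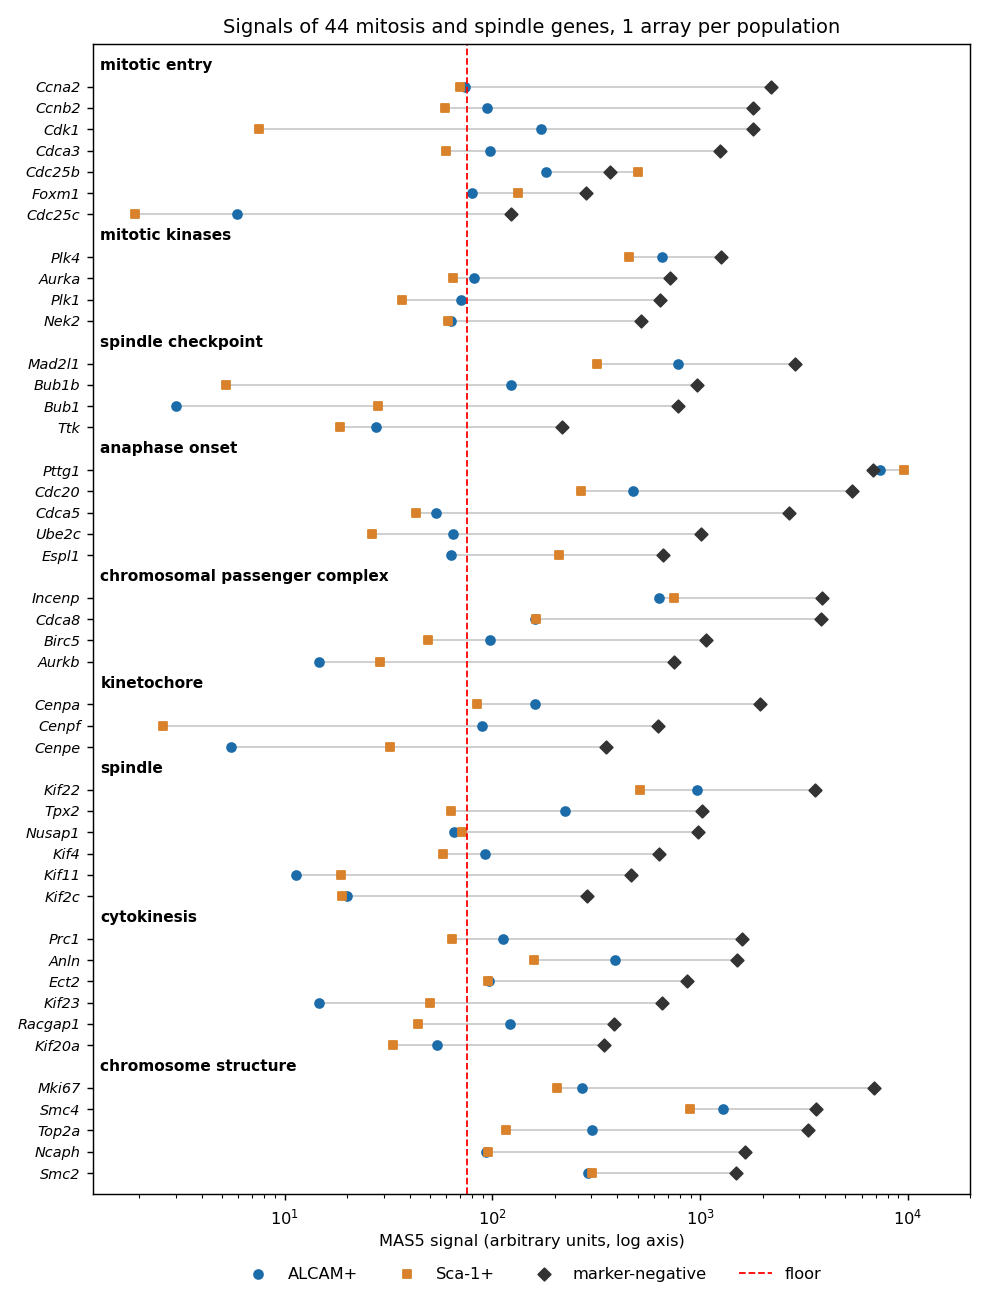
MAS5 signal of each of the 44 genes (rows, grouped by role) on a log axis, with 1 point per array for ALCAM+, Sca-1+ and marker-negative cells and the floor of 75.4 as a dashed line. The marker-negative point lies farthest right in 42 rows, and Pttg1 and Cdc25b are the exceptions.

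Between ALCAM+ and marker-negative cells 32 of the 44 genes were at least 4-fold lower in ALCAM+ cells and 0 were higher, with a median log2 difference of -3.03. Over all measured genes 2.67% were lower and 2.01% higher by the same rule, and the median was -0.03. Between Sca-1+ and marker-negative cells 36 of the 44 were at least 4-fold lower in Sca-1+ cells and 0 higher, with a median of -3.18, against 4.71% lower, 5.46% higher and a median of 0.00 over all measured genes. By a 2-fold rule 41 of the 44 were lower in each comparison and 0 higher, where 10.6% of measured genes were lower and 6.68% higher in ALCAM+ cells, and 12.7% and 15.0% in Sca-1+ cells. Both comparisons use the same marker-negative array, so they are not independent. The medians understate the difference wherever a signal was set to the floor, as it was for 16 genes in ALCAM+ and 26 in Sca-1+ cells. The counts depend on that floor and on the probe sets. They became 10 and 13 with a floor at the pooled 75th percentile of 433.9, and 18 and 22 when the log2 signals of a gene's probe sets were averaged.

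**Figure D2:**
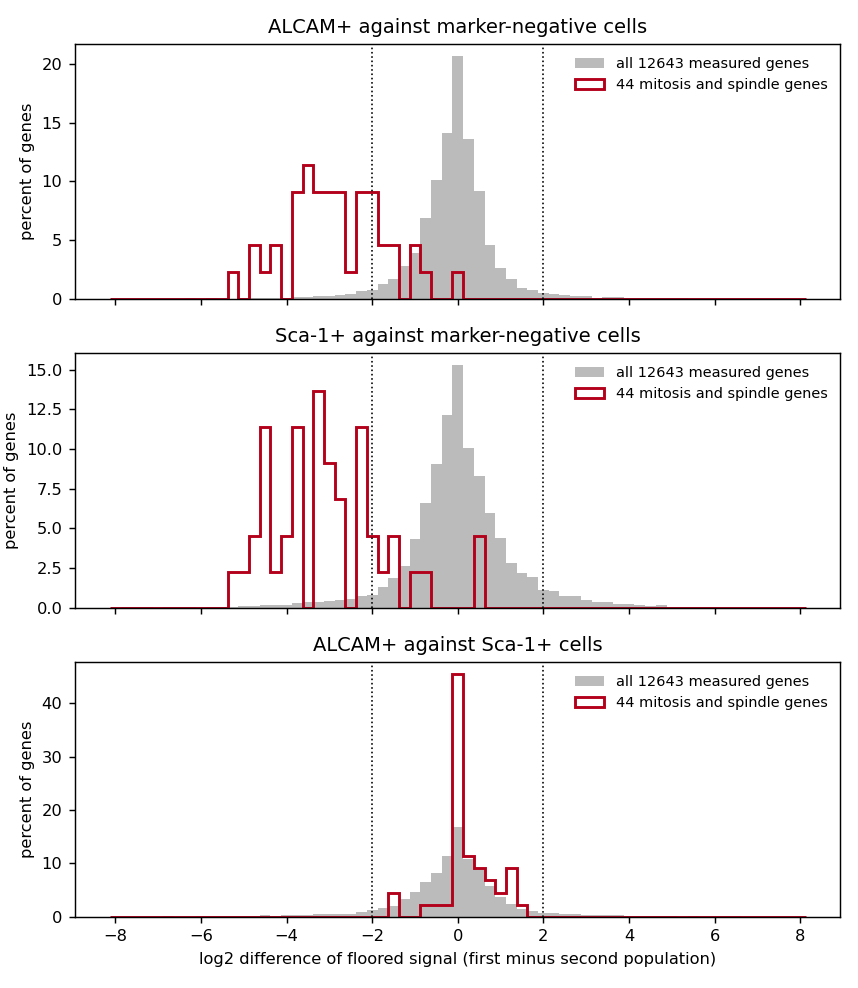
Distribution of log2 differences in the 3 comparisons, as percent of genes per bin of width 0.25, for the 12643 measured genes (grey) and the 44 mitosis genes (red outline), with dotted lines at 4-fold. The mitosis genes lie mostly left of the lower line in the upper and middle panels, with medians of -3.03 and -3.18, and around 0 in the lowest panel.

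The promoters of these genes, most of which were low together, were searched for the CHR (letters TTTGAA or TTCGAA) and for the letters CCAAT, each on both strands. TTCGAA reads the same on both strands and was counted once, and neighbouring matches may share end letters. RefSeq promoter windows of 300 bases, from 250 before to 50 after a transcript start (build GRCm38.p6), were at hand for 36 of the 44 genes. A CHR was found in 28 of the 36 (77.8%), against 16.3% of 10215 measured genes with a window. It started within 50 bases of the transcript start in 26 of the 36 (72.2%), against 4.31%. A CCAAT box was found in 27 (75%), against 42.5%, and a CHR together with a CCAAT box in 25 (69.4%), against 6.54%. Of 62 other mitosis genes with a window 62.9% held a CHR, and 48.4% held it near the start. Of 29 DNA replication genes, many of which were also lower in both populations, 20.7% held a CHR and 6.9% held it near the start. These shares describe letters in the windows and are not a test of binding.

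The stretches of 120 bases that end just before the transcript start are shown for 8 members with a CHR in the window that were at least 4-fold lower in both comparisons, and for Pttg1, which was 4-fold apart in neither and whose window held neither motif. They are those of Cdk1 at chr10:69352913-69353032 (minus strand), Ccnb2 at chr9:70421555-70421674 (minus strand), Mki67 at chr7:135716380-135716499 (minus strand), Top2a at chr11:99024190-99024309 (minus strand), Cdc20 at chr4:118437344-118437463 (minus strand), Ube2c at chr2:164769809-164769928 (plus strand), Cdca5 at chr19:6084977-6085096 (plus strand), Kif11 at chr19:37376262-37376381 (plus strand) and Pttg1 at chr11:43425982-43426101 (minus strand). They read 5' to 3' on the strand of the gene, with every CHR and CCAAT match, on either strand, in capitals.
Cdk1: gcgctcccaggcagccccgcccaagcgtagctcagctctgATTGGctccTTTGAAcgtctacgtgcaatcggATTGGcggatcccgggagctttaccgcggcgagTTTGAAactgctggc
Ccnb2: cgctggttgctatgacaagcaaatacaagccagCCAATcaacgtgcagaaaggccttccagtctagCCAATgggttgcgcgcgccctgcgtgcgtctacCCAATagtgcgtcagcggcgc
Mki67: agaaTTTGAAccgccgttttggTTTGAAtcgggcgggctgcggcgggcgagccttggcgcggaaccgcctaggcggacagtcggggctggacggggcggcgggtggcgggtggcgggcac
Top2a: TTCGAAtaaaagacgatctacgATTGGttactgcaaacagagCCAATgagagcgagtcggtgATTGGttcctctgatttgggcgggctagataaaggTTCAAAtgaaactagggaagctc
Cdc20: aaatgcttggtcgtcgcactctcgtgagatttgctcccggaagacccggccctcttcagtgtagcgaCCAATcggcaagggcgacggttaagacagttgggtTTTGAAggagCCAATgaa
Ube2c: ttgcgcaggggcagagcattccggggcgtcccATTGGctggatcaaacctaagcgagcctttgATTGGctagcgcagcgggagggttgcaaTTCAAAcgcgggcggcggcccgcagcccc
Cdca5: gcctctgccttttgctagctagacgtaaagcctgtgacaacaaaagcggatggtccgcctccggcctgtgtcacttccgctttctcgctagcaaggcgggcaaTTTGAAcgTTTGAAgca
Kif11: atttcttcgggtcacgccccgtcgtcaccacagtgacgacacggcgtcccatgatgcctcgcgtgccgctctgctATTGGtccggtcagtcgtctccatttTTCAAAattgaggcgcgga
Pttg1: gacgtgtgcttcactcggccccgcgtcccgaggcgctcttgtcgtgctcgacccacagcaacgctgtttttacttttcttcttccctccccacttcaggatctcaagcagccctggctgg
Counted so that -1 is the last base before the transcript start, a CHR begins at -15 in Cdk1, at -18 in Cdc20, at -19 in Kif11, at -23 in Top2a and at -29 in Ube2c. Ccnb2 shows 3 CCAAT boxes, at -87, -54 and -21, and its nearest CHR begins at base 5 of the transcript and so is not shown. Cdca5 carries a pair of CHR matches at -17 and -9 and no CCAAT box in its window, and in Mki67 the pair lies farther out, at -116 and -98. Motif and signal did not go together in every gene. Of the 28 genes with a CHR in the window 21 were at least 4-fold lower in both comparisons and 4 in 1 of them. Cdc25b, Ttk and Kif2c were in neither. Ttk and Kif2c could not pass, as their marker-negative signals of 216.9 and 286.5 allowed folds of at most 2.88 and 3.80 over the floor. Lowering the floor to 21.1 gave Ttk log2 differences of -2.97 in ALCAM+ and -3.36 in Sca-1+ cells, and Kif2c -3.76 in each. Ttk and Kif2c thus do not show motif and signal apart. Cdc25b has its CHR at base 8 and a CCAAT box at -28. Of the 8 genes without a CHR in the window, Birc5, Nusap1, Ncaph, Nek2 and Cenpe were at least 4-fold lower in both comparisons, Mad2l1 in Sca-1+ cells alone, and Plk4 and Pttg1 in neither.

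**Figure D3:**
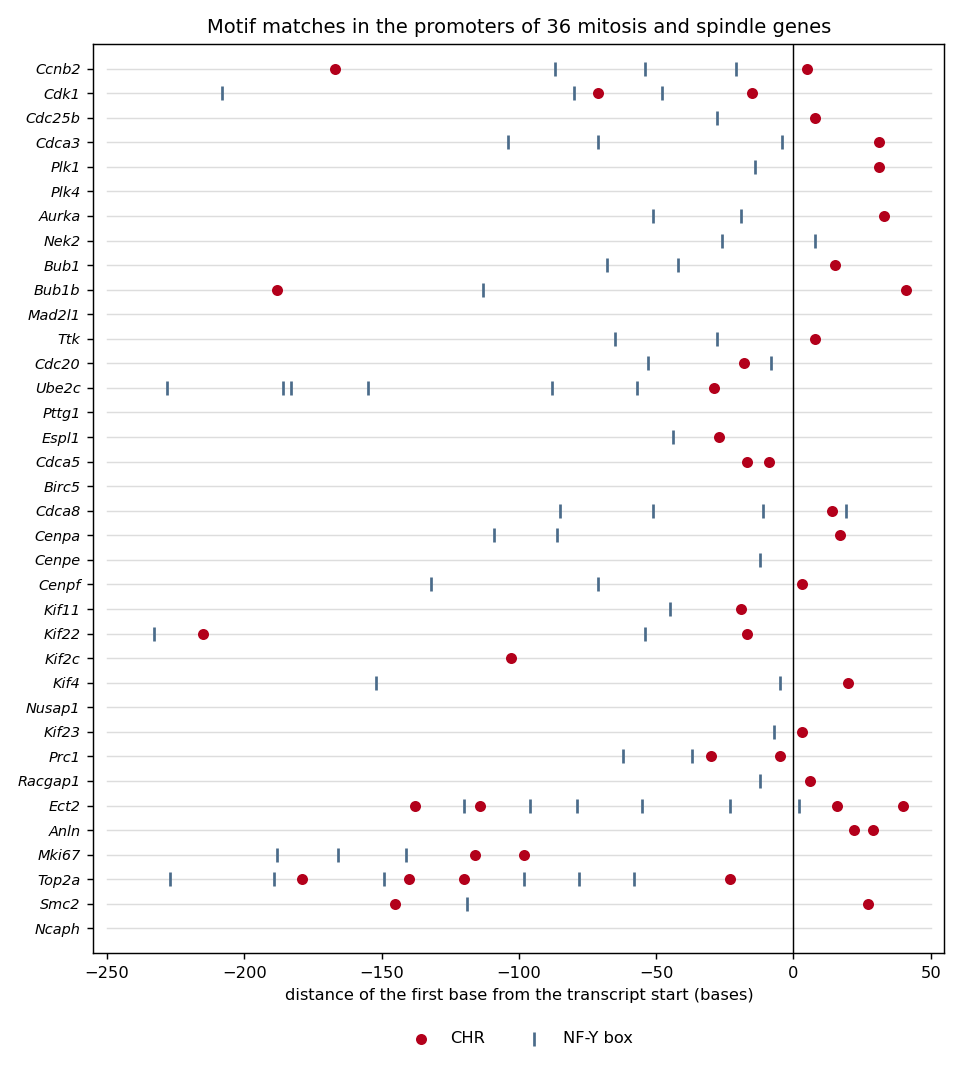
Positions of CHR matches (red points) and CCAAT boxes (blue ticks, marked as NF-Y box) from 250 bases before to 50 bases after the transcript start, 1 row for each of 36 genes; Ect2 and Prc1 have 2 windows each, drawn together. CHR matches gather near the start, within 50 bases of it in 26 genes.

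The same letters were then set against the signals of all measured genes. Of 250 measured genes with a CHR within 50 bases of the start and a CCAAT box, 14.8% were at least 4-fold lower in ALCAM+ cells than on the marker-negative array and 18.0% were lower in Sca-1+ cells. By the same rule 2.0% and 5.2% were higher. These 250 include members of the list. Without them 226 genes were left, of which 7.52% and 10.6% were lower and 2.21% and 5.75% higher. Only the members were left out, so other mitosis genes remain among the 226, and their part in these shares was not tested. Of 8540 genes with no CHR in the window, again without members, 2.21% and 4.17% were lower and 1.86% and 4.85% higher. These 8540 were taken with or without a CCAAT box, so the classes differ in more than the CHR. Genes with a CHR that missed the conditions of the first class are in neither.

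Among the genes of mitotic entry, 4 of 7 were at least 4-fold lower in both marker-positive populations. Ccna2, which encodes cyclin A2, gave 2188 in marker-negative cells, 73.7 in ALCAM+ and 69.8 in Sca-1+ cells, both below the floor, and was at least 29.0-fold lower in each. Ccnb2, which encodes cyclin B2, gave 1796, 94.2 and 59.0, which is 19.1-fold lower in ALCAM+ and at least 23.8-fold lower in Sca-1+ cells. Cdk1, their kinase partner, gave 1794, 172.3 and 7.5, so it stayed above the floor in ALCAM+ cells, 10.4-fold lower, and was at least 23.8-fold lower in Sca-1+ cells. Cdca3, a factor that promotes entry into mitosis, gave 1252, 97.1 and 60. All 4 were below the floor in Sca-1+ cells, and Ccna2 was also below it in ALCAM+ cells.

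The other 3 genes of mitotic entry were 4-fold lower in neither comparison. Foxm1, a transcription factor gene that drives late cell cycle transcription, gave 281.7 in marker-negative cells, 79.9 in ALCAM+ and 132.9 in Sca-1+ cells, so it was 3.53-fold and 2.12-fold lower. Cdc25c, a phosphatase gene that activates Cdk1, gave 123 in marker-negative cells and was below the floor elsewhere, at least 1.63-fold lower, a bound that its own dim signal keeps small. Its relative Cdc25b gave 370.0 in marker-negative, 181.8 in ALCAM+ and 502.4 in Sca-1+ cells. Cdc25b had a single probe set and was the only member of this group without its highest signal in marker-negative cells.

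Of the mitotic kinase genes, Plk1, Aurka and Nek2 were at least 4-fold lower in both populations and Plk4 was not. Plk1, the polo-like kinase of spindle and centrosome maturation, gave 642.8 in marker-negative, 70.4 in ALCAM+ and 36.9 in Sca-1+ cells. Aurka, which encodes the Aurora kinase of the spindle poles, gave 713.5, 81.9 and 65.0. Nek2, a centrosome kinase gene, gave 522.2, 63.3 and 61.3. Outside marker-negative cells these 3 lay below the floor or, for Aurka in ALCAM+ cells, just above it. Plk4, the kinase that starts centriole duplication, kept a clear signal on every array, at 1266, 657.9 and 455.9, and was 1.92-fold lower in ALCAM+ and 2.78-fold lower in Sca-1+ cells.

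The spindle checkpoint genes Bub1 and Bub1b were low in both populations, at 3.0 and 28.2 for Bub1 and 123 and 5.2 for Bub1b in ALCAM+ and Sca-1+ cells, against 781.9 and 965.9 in marker-negative cells. Mad2l1, which encodes the checkpoint protein Mad2, was above the floor on each array, with 2864 in marker-negative, 779.4 in ALCAM+ and 319.6 in Sca-1+ cells. It was 8.96-fold lower in Sca-1+ cells, while in ALCAM+ cells the 3.67-fold difference stayed under the size rule. Ttk, which encodes the checkpoint kinase Mps1, was dim throughout, at 216.9, 27.6 and 18.5, and at least 2.88-fold lower in both.

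The anaphase genes included some that were far apart between the arrays and 1, Pttg1, that was not. Cdca5, which encodes sororin, a protector of sister chromatid cohesion, gave 2685 in marker-negative, 53.8 in ALCAM+ and 43.1 in Sca-1+ cells, and was at least 35.6-fold lower in each. Cdc20 gave 5372, 474.7 and 268.3, which is 11.3-fold and 20.0-fold lower and still above the floor on all 3 arrays. Ube2c, a ubiquitin-conjugating enzyme gene of the anaphase-promoting complex, gave 1012, 64.7 and 26.4. Espl1, which encodes separase, the protease that cuts cohesin, gave 665.7, 63.5 and 208.4, so that it was at least 8.83-fold lower in ALCAM+ but only 3.19-fold lower in Sca-1+ cells.

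Pttg1, which encodes securin, the inhibitor of separase, was 4-fold apart in no comparison. Its signal was 6830 in marker-negative, 7311 in ALCAM+ and 9529 in Sca-1+ cells. The 3 arrays lay within 1.40-fold of each other. Its other probe sets gave 639.6, 742.8 and 842.4, and 302.6, 180.9 and 492.5, in the same order of arrays, so each was highest in Sca-1+ cells, and none was 4-fold apart. The direction between ALCAM+ and marker-negative cells turned with the probe set and with the scaling, from a log2 difference of 0.10 to -0.14 for the mean of its probe sets, to -0.53 when the arrays were scaled on poly-A spike-in controls and -0.40 on hybridization controls.

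All 4 genes of the chromosomal passenger complex, which corrects faulty chromosome attachments and later works at the cleavage site, were at least 4-fold lower in both populations. Cdca8, which encodes borealin, gave 3813 in marker-negative, 160.1 in ALCAM+ and 162.4 in Sca-1+ cells, 23.8-fold and 23.5-fold lower. Incenp, the scaffold of the complex, gave 3872, 633.4 and 750.0, 6.11-fold and 5.16-fold lower. Incenp thus kept a larger share of its marker-negative signal than Cdca8 did. Birc5, which encodes survivin, gave 1067, 96.9 and 48.9, and Aurkb, the kinase subunit, 744.6, 14.7 and 28.7. Survivin transcripts were above the floor in ALCAM+ cells, and those of Aurkb in neither. Signals of different genes come from different probes, so their levels are compared between arrays. Shares and floor calls set side by side for different genes, here and below, may also depend on the probes.

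The 3 kinetochore genes were also lower in both. Cenpa, the histone variant that marks the centromere, gave 1949 in marker-negative, 160.5 in ALCAM+ and 84.2 in Sca-1+ cells, 12.1-fold and 23.1-fold lower. Cenpf gave 627.8, 89.2 and 2.6. Cenpe, a kinetochore motor gene, gave 353.3, 5.5 and 32.3, at least 4.69-fold lower in each.

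Of 6 spindle genes, 4 were at least 4-fold lower in ALCAM+ and 5 in Sca-1+ cells. Nusap1, a microtubule-bundling protein gene, gave 971.8 in marker-negative, 65.6 in ALCAM+ and 71.6 in Sca-1+ cells. Tpx2, an activator of Aurora A, gave 1021, 222.7 and 62.9, which is 4.58-fold lower in ALCAM+ and at least 13.5-fold lower in Sca-1+ cells. Its further probe sets gave log2 differences of -0.72, -0.86 and -2.07 in ALCAM+ cells, the last with the ALCAM+ signal set to the floor. Kif11, the motor that pushes spindle poles apart, gave 465.7, 11.3 and 18.7. Kif4, a chromosome-bound kinesin gene, gave 633.7, 92.2 and 58.1, and thus followed the same order as Tpx2. Kif22, another chromosome-bound kinesin gene, was above the floor on all 3 arrays by its brightest probe set, at 3556, 965.7 and 514.2. That probe set was 3.68-fold and 6.92-fold lower. Its further probe sets exceeded the floor in marker-negative cells alone, at 373.5 and 193.0. Their log2 differences were -2.31 and -1.36 in both comparisons, as bounds set by the floor. Whether Kif22 passed the 4-fold rule in ALCAM+ cells thus turned with the probe set. Kif2c, a microtubule-depolymerizing kinesin gene, was at 286.5, 19.9 and 18.9, at least 3.80-fold lower.

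The cytokinesis genes were at least 4-fold lower in 4 of 6 cases in ALCAM+ and in 6 of 6 in Sca-1+ cells. Prc1, which bundles the microtubules of the spindle midzone, gave 1591 in marker-negative, 113.1 in ALCAM+ and 64.2 in Sca-1+ cells, 14.1-fold and at least 21.1-fold lower. Ect2, the activator of RhoA at the cleavage furrow, gave 868.7, 96.2 and 95.2, 9.03-fold and 9.13-fold lower. Anln, which encodes the furrow scaffold anillin, gave 1504, 388.5 and 158.9, 3.87-fold and 9.46-fold lower. Anln and Racgap1, a partner of Ect2 with 384.5, 121.2 and 43.7, were the members under the size rule in ALCAM+ cells. For Racgap1 this turned with the probe set. A further Racgap1 probe set gave 371.6, 72.6 and 49.7, a log2 difference of -2.30 in ALCAM+ cells with that signal set to the floor. The midzone motor genes Kif23 and Kif20a gave 656.7 and 345.9 in marker-negative cells and lay below the floor elsewhere.

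Chromosome structure genes were the only group with all members above the floor on all 3 arrays, so their folds are measured and not bounds. Mki67, which encodes the proliferation marker Ki-67, a coat of mitotic chromosomes, gave 6858 in marker-negative, 269.1 in ALCAM+ and 203.8 in Sca-1+ cells. It was 25.5-fold and 33.7-fold lower. Top2a, the topoisomerase that untangles sister chromatids, gave 3299, 301.0 and 116.5, 11-fold and 28.3-fold lower. The condensin genes differed in size. Ncaph gave 1638, 93.0 and 94.8, 17.6-fold and 17.3-fold lower. The core subunit genes differed less, Smc2 at 1484, 290.2 and 303.4 (5.11-fold and 4.89-fold) and Smc4 at 3629, 1284 and 895.1 (2.83-fold and 4.05-fold). By their brightest probe sets the core subunits thus kept a larger share of their marker-negative signal than Ncaph. For Smc4 in Sca-1+ cells this turned with the probe set. Further Smc4 probe sets gave 1037.5 in marker-negative, 439.8 in ALCAM+ and 121.3 in Sca-1+ cells, and 298.7, 126.7 and 31.8. A further Ncaph probe set gave 550.8, 48.8 and 60.7.

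Between ALCAM+ and Sca-1+ cells 0 of the 44 genes were 4-fold apart, while 3.99% of all measured genes were higher and 5.86% lower in ALCAM+ cells. This comparison is the difference of the other comparisons and adds no measurement, and for 15 genes both signals were at or below the floor. By a rule of 2-fold, 5 genes were higher in ALCAM+ cells (Tpx2, at least 2.95-fold; Top2a, 2.58-fold; Anln, 2.45-fold; Mad2l1, 2.44-fold; Cdk1, at least 2.28-fold). Cdc25b and Espl1 were lower, 2.76-fold each and for Espl1 at least. Over all measured genes 11.2% were 2-fold higher and 15.8% lower, so these 5 of 44 are near the background. With arrays scaled by the poly-A controls, none of these 5 stayed 2-fold higher. Their log2 differences were then 0.94 for Tpx2, 0.67 for Cdk1, 0.49 for Top2a, 0.41 for Anln and 0.40 for Mad2l1. Under the same scaling Cdc25b became 4-fold lower, at -2.35, and Espl1 stayed lower, at -1.83.

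Further probe sets of the same genes gave a check within the arrays. The 44 genes had 104 probe sets, 60 of them beside the brightest, and 28 of these were below the floor on all 3 arrays. Of the remaining 32, from 23 genes, 18 were above the floor in marker-negative cells alone, so that being highest there was fixed by the floor. The other 14, from 11 genes, were above it in ALCAM+ or Sca-1+ cells. Of these 14, 11 had their highest signal in marker-negative cells, 4 were 4-fold lower in ALCAM+ cells and 8 in Sca-1+ cells. The exceptions were the further probe sets of Pttg1, with signals given above, and a Cenpa probe set near the floor at 81.9, 28.9 and 90.8. Over all genes the disagreement between 2 probe sets of a gene, both above the floor on every array (4152 genes), had an SD of 0.54 on the log2 scale for ALCAM+ and 0.67 for Sca-1+ against marker-negative cells. It covers differences between probes alone and not those between sorts or mice.

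**Figure D4:**
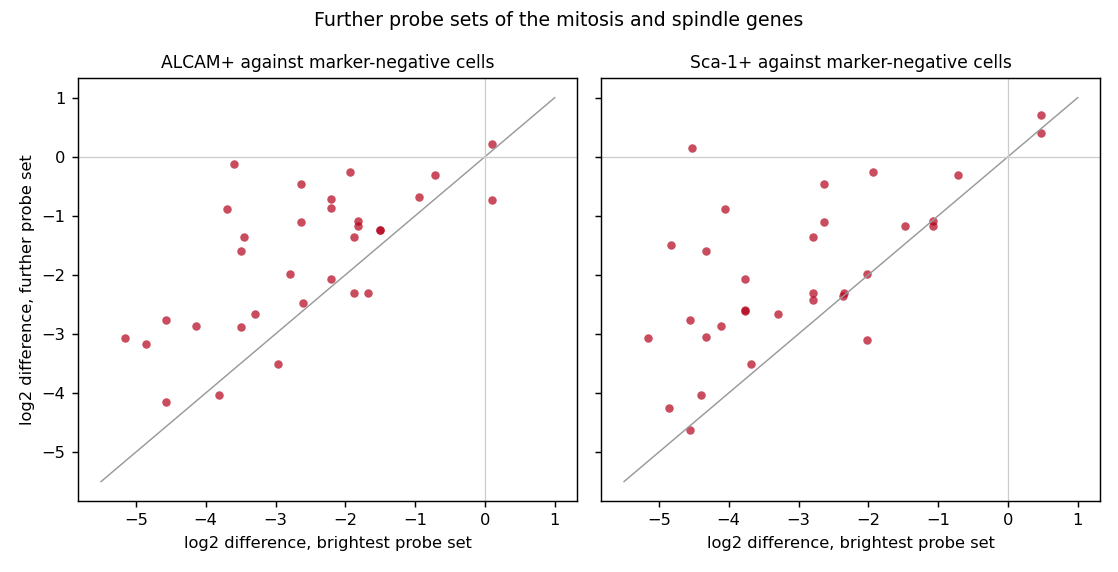
Log2 difference from marker-negative cells of the brightest probe set of a gene (horizontal axis) against that of a further probe set of the same gene above the floor on any array (vertical axis), 32 probe sets of 23 genes in each panel, with the line of equality in grey. Most points lie in the lower left, and many lie above the line, where the dimmer probe set showed the smaller difference.

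Other genes of the division programme were taken from lists that do not hold the 44. Of 76 other mitosis genes 27 were at least 4-fold lower in ALCAM+ and 31 in Sca-1+ cells and 0 were higher, with medians of -1.43 and -1.68. Pbk, a mitotic kinase gene, gave 2127 in marker-negative, 108.1 in ALCAM+ and 108.2 in Sca-1+ cells, 19.7-fold lower in each. Stmn1, which encodes the microtubule-destabilizing stathmin, gave 9007, 641.3 and 606.6, and Hmmr, a spindle protein gene, 985.3, 76.9 and 46.3. DNA replication genes lay on the same side, with 22 of 33 lower in ALCAM+ and 18 in Sca-1+ cells; Tk1 was at least 19.3-fold lower in each and Rrm2 17.4-fold and 16.8-fold. The counts for both lists lay above the shares of all measured genes given above. Some replication genes differed little: Slbp, a histone mRNA-binding protein gene named after its values were seen, gave 2096 in marker-negative, 1504 in ALCAM+ and 1179 in Sca-1+ cells.

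Subunits of the anaphase-promoting complex, listed with its enzyme gene Ube2s, differed less than its activator Cdc20 and its enzyme Ube2c, which were low. Of these 15 listed genes 0 were 4-fold apart in any of the 3 comparisons, a count near the shares of 2.01% to 5.86% of all measured genes. The medians were 0.07 and 0.04 against marker-negative cells. The largest difference from marker-negative cells was that of Anapc15, at 661.1 in marker-negative, 394.5 in ALCAM+ and 252.2 in Sca-1+ cells. Tubulin and housekeeping genes had 0 of 13 apart and medians of -0.35 in both comparisons. Hprt differed most from marker-negative cells, at 4104 there, 2102 in ALCAM+ and 2320 in Sca-1+ cells. These medians are relative to the arrays as deposited, since scaling by the poly-A controls moved the median of all measured genes by -0.58 in ALCAM+ and by 0.20 in Sca-1+ against marker-negative cells.

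**Figure D5:**
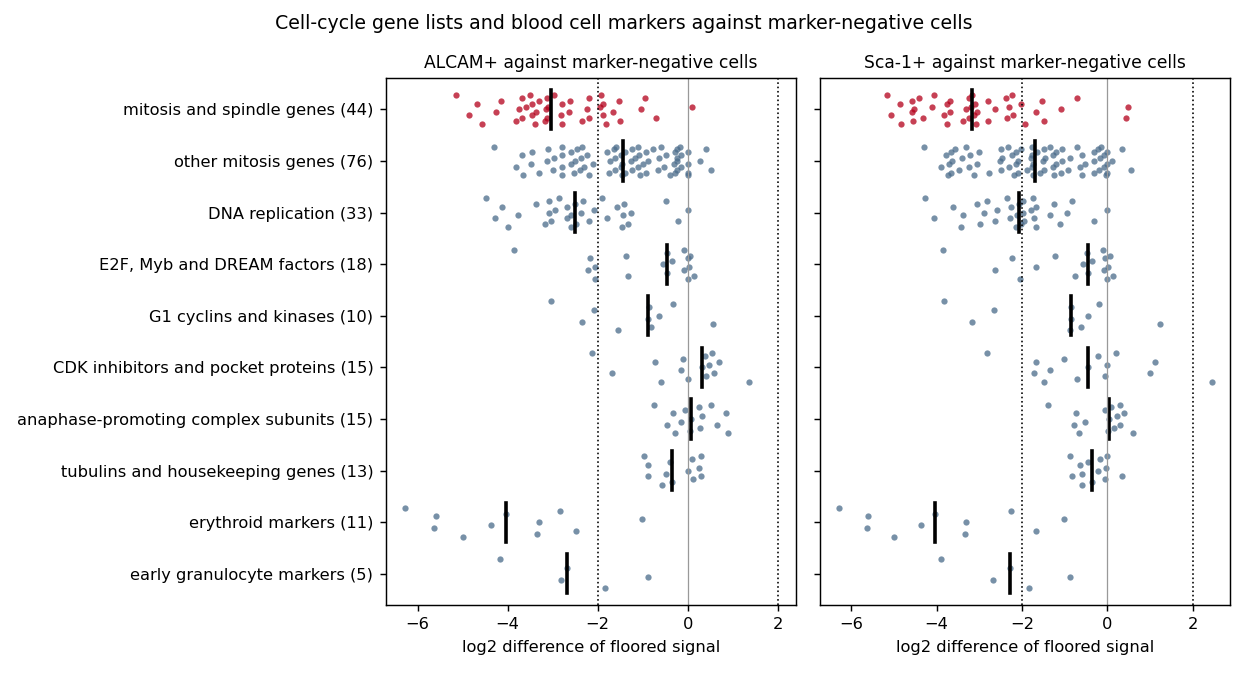
Log2 difference from marker-negative cells for ALCAM+ (left) and Sca-1+ cells (right), with 1 point per gene, a black bar at the median of each list, the number of named genes in brackets and dotted lines at 4-fold. The mitosis list (red, medians -3.03 and -3.18), the replication list and the erythroid markers lie to the left, and the anaphase-promoting complex and housekeeping lists lie around 0.

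Markers of some blood cells were also highest in marker-negative cells. All 11 named erythroid markers were above the floor in marker-negative cells and 2 of 11 in each other population, and their summed signal was 21377 in marker-negative, 473.3 in ALCAM+ and 576 in Sca-1+ cells. Of the 11 markers 10 were at least 4-fold lower in ALCAM+ and 9 in Sca-1+ cells. Klf1, which encodes an erythroid transcription factor, gave 3649 against 58.6 on each other array, and Hemgn gave 5892, 1.6 and 22.9 in the order marker-negative, ALCAM+ and Sca-1+. The sort had removed cells with Ter119. The 5 early granulocyte markers were all above the floor in marker-negative cells, 0 in ALCAM+ and 2 in Sca-1+ cells, with sums of 2775, 157.5 and 357.8, led by Mpo at 1355, 25.2 and 91.4. The part of these cells in the mitosis signals was not tested.

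Other cell type markers were distributed differently. Late granulocyte markers summed to 16098 in Sca-1+, 1176 in marker-negative and 328.1 in ALCAM+ cells. They were thus highest in Sca-1+ and lowest in ALCAM+ cells, and the mitosis genes were dim in both. Of 5 B cell markers 1 was above the floor in marker-negative cells (Pax5, 108.6), and the 3 T cell markers were below it on all arrays. The 3 macrophage markers summed to 291.6 in marker-negative, 354.1 in ALCAM+ and 393.2 in Sca-1+ cells. In the same order, the 4 megakaryocyte markers summed to 1660.0, 1150.4 and 2164, and the 5 endothelial markers to 139, 175.6 and 757.8. The megakaryocyte sum in Sca-1+ cells was mostly Itga2b, at 1687, while Pf4 and Gp1bb were highest in marker-negative cells. The endothelial sum in Sca-1+ cells was mostly Tek, at 630.6, the only 1 of the 5 above the floor there. The 6 cartilage markers were bright in marker-negative and ALCAM+ cells, with sums of 114800 and 134351 against 4183 in Sca-1+ cells. The 4 osteoblast markers summed to 45029, 114717 and 8498, and the 6 fibroblast and progenitor markers to 2334, 5599.9 and 85619, in the order marker-negative, ALCAM+ and Sca-1+. Pdgfra made up 5122 of the last list's ALCAM+ sum, and 3 of its 6 genes were at least 2-fold lower in ALCAM+ than in marker-negative cells. Skeletal markers were thus present in marker-negative cells together with the mitosis and erythroid genes.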

How the data were processed

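RNA of the 3 sorted populations was measured on 1 array each. Per the labels' protocols, TRIzol was used for extraction and a biotin-labelled cRNA was made by 2 cycles of amplification, which favours 3' ends. The values are signal intensities deposited by the authors for 45101 probe sets per array, made with MAS5 (no version named), per the submitters' processing notes. The 2% trimmed mean was 500 on each array, so no further scaling was applied; equal scaling hides differences in total RNA per cell. Genes were named by the array's annotation table, updated through a RefSeq gene table (GRCm38.p6), which changed 0 symbols; of the non-control probe sets 34945 named 1 gene, 932 named several and 9160 were absent from the table. The 64 control probe sets entered no gene result.

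Floor, brightest probe set and the 4-fold rule were as described above. With 1 array per population there is no p-value. The number of arrays limits the precision. The members and lists were chosen with earlier results of these data known. Named are all 44 members and, of each other list, up to 3 genes with the largest difference between marker-negative cells and the mean of the others, with any gene 4-fold apart against the list's direction; further names were chosen after their values were seen. The calculation was tested on simulated data. Alternatives were quantile normalization, scaling on spike-in or hybridization controls, other floors, other probe set choices and a 2-fold rule. Promoter windows came from RefSeq. Python 3.11.15, pandas 2.3.3, numpy 2.4.6 and matplotlib 3.10.9 were used.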

Additional observations from a re-analysis of the deposited data

How the results depend on the processing

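No paired analysis was possible because each population had 1 array and the labels give no replicate numbers, and for the same reason no array could be left out. Quantile normalization, either control scaling, the floor at the 25th percentile and the brightest probe set without a shared-probe suffix kept the counts against marker-negative cells within 30 to 39 of the 44 genes (43 with that last choice), and the 2-fold rule gave 41 in each, all lower. A floor raised to the 75th percentile gave counts of 10 in ALCAM+ and 13 in Sca-1+ cells and medians of -1.16 and -1.19, since the higher floor hides dim signals. Averaging all probe sets gave 18 and 22, with medians of -1.65 and -1.97, since it takes in probe sets at the floor. Between ALCAM+ and Sca-1+ cells the count of 0 became 1 under either control scaling (Cdc25b, lower), 3 with the floor at the 25th percentile (Cdk1, Bub1b and Cenpf, higher) and 7 by the 2-fold rule. Leaving the 75th percentile floor aside, 43 genes were lower in ALCAM+ than in marker-negative cells in each of the 7 remaining settings that gave them a value, with Pttg1 as the exception, and 42 in Sca-1+ cells, with Pttg1 and Cdc25b as exceptions; Aurkb had no value without shared-probe suffixes. Scaling on poly-A controls moved the median of all measured genes by -0.58 and 0.20 in the comparisons of ALCAM+ and Sca-1+ with marker-negative cells and by -0.82 between them, and hybridization controls by -0.46, 0.24 and -0.74; by the former 665 genes were 4-fold lower in ALCAM+ than marker-negative cells and 144 higher, by the latter 559 and 163, against 338 and 254 as deposited. A single array per population leaves the spread between sorts and mice unmeasured.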

Other observations

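Genes that act before mitosis were less uniform. Of 10 cyclin and kinase genes of the phase before replication, 3 were at least 4-fold lower in ALCAM+ and 3 in Sca-1+ cells and 0 were higher. Over all measured genes 2.67% were lower and 2.01% higher in ALCAM+ cells by this rule, and 4.71% and 5.46% in Sca-1+ cells. Ccne1, which encodes cyclin E1, gave 2242 in marker-negative, 273.8 in ALCAM+ and 250.4 in Sca-1+ cells, 8.19-fold and 8.95-fold lower. Cdk6, a kinase gene of that phase, gave 6569, 1554 and 465.1, and Ccne2 gave 657.3, 129.5 and 104.7. Ccnd2, which encodes cyclin D2 and was named after its values were seen, was highest in Sca-1+ cells, at 5386 against 2283 in marker-negative and 1821 in ALCAM+ cells. Among 18 E2F, Myb and DREAM genes 5 were lower in ALCAM+ and 4 in Sca-1+ cells, with E2f8 at 1089, 69.6 and 6.40, Mybl2, which encodes B-Myb, at 465, 112.6 and 36.2, and E2f2 at 350.5, 48.8 and 9.30.

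Of 15 genes of CDK inhibitors, pocket proteins and related growth-arrest factors, 1 was at least 4-fold lower in ALCAM+ than in marker-negative cells. In Sca-1+ cells 1 was lower and 1 higher by the same rule. These counts are near the shares of all measured genes, 2.67% lower in ALCAM+ and 4.71% lower and 5.46% higher in Sca-1+ cells. The gene lower in ALCAM+ cells was Rbl1, which encodes p107, at 780.0, 180.0 and 305.6 in marker-negative, ALCAM+ and Sca-1+ cells. Gas1, a growth-arrest gene, gave 3049, 958.3 and 16696 so it was highest in Sca-1+ cells, by 5.48-fold over marker-negative cells, and Cdkn1c, which encodes the CDK inhibitor p57, gave 9335, 12216 and 1325 and was 7.05-fold lower there. Ccng2, a cyclin gene of arrested cells, gave 789.1, 2047 and 1701. Among the other mitosis genes, Pmf1, a kinetochore gene named after its values were seen, was bright in marker-negative and ALCAM+ cells, at 1218 and 1041, and gave 97.6 in Sca-1+ cells, 10.7-fold below ALCAM+ cells.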
